A study of Mus musculus with 39 samples.

Results

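Genes that mark thymic epithelial cells were followed in RNAseq counts from 39 mouse mammary tumours. They were picked by symbol, 9 of the 53715 genes in the count table. The medullary genes were Aire, Fezf2 and Cd80, the cortical genes were Psmb11, Prss16 and Ctsl, and the general thymic epithelial genes were Foxn1, Pax1 and Pax9. All 9 had at least 1 count in some tumour.

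Thymic epithelial cells teach developing T cells what belongs to the body. FOXN1 is the transcription factor that builds and maintains these cells, and it also acts in the hair follicle and in skin keratinocytes. In the medulla, AIRE and FEZF2 switch on genes of other tissues so that self-reactive T cells can be removed. In the cortex, the PSMB11 proteasome subunit, the PRSS16 protease and cathepsin L (CTSL) cut the peptides on which T cells are selected. PAX1 and PAX9 pattern the pharyngeal pouches from which the thymus grows.

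The tumours came from adult female BlgCre;Brca1flox/flox;p53 +/- mice, in which the beta-lactoglobulin promoter drives Cre in mammary epithelium. Every mouse was thus labelled with the same Brca1 and p53 genotype, and the labelled genotypes differed only at Lyn. The alleles left in each tumour were not examined here. Lyn is a SRC-family kinase gene whose floxed allele loses exon 4 after Cre. There were 13 Lynfl/fl tumours from 9 mice, 14 Lynfl/wt tumours from 10 mice and 12 Lynwt/wt tumours from 9 mice, all labelled adenocarcinoma of no special type. The submitters also labelled 10 tumours as PCA group 3/4 and 29 as PCA group 1/2 from their expression profiles, and 13 tumours as Lyn-high and 13 as Lyn-low from Lyn itself. The PCA group 3/4 tumours were 1 Lynfl/fl, 6 Lynfl/wt and 3 Lynwt/wt, and 6 of the 10 were Lyn-high while 0 were Lyn-low. Pieces of whole tumour were sequenced, so fewer cells of a type and less RNA per cell cannot be told apart.

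Total counts ran between 50490044 and 83122719 per tumour, and values are given as normalised counts, that is counts scaled by TMM factors to the mean library size of 64676387. Lyn ran between 657 and 5870 normalised counts in Lynfl/fl tumours, 1639 and 5312 in Lynfl/wt tumours, and 1773 and 11715 in Lynwt/wt tumours. The genotypes thus overlapped in counts over the whole gene, which also holds the exons outside the deletion. The paper reported that the floxed allele remained intact in cultured cells of some tumours. It also reported that some Lynwt/wt tumours had little or no LYN staining. Lynfl/fl is therefore the genotype of the mouse and not a measured loss of Lyn. Lyn-high tumours (3253 to 11715) did not overlap Lyn-low tumours (657 to 2219). The mammary epithelial keratin Krt8 was at 19830.3 normalised counts or more in every tumour. Of thymocyte genes, Rag2 had no count in any of the 39 tumours, Rag1 had none in 30 and reached at most 28 counts, Dntt reached at most 58 and Ptcra at most 26.

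The 250 bases before the start of 4 members are shown because Aire, Foxn1 and Fezf2 had the highest ratios between the PCA groups, while Psmb11, a gene that FOXN1 controls in the thymus, was at 19.9 normalised counts or less in all 39 tumours. Capitals mark GACGC, the core that FOXN1 binds, on either strand (GACGC or GCGTC), and TATAAA on either strand (TATAAA or TTTATA).
Aire, chr10:78043611-78043860, minus strand: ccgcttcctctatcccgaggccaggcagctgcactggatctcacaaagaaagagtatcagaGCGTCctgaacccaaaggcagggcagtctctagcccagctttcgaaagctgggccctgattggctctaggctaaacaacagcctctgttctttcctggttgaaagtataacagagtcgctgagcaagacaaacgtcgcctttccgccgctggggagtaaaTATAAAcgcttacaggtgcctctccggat
Foxn1, chr11:78386609-78386858, minus strand: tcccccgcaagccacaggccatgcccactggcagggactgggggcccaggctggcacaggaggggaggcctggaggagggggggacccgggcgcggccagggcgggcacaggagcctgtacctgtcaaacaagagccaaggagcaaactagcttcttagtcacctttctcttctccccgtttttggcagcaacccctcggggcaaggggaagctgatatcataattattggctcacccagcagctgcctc
Fezf2, chr14:12345866-12346115, minus strand: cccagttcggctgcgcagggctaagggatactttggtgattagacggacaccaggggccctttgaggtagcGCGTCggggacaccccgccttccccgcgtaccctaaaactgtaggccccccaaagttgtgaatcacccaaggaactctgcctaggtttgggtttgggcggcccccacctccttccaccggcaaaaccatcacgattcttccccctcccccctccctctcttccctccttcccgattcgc
Psmb11, chr14:54625060-54625309, plus strand: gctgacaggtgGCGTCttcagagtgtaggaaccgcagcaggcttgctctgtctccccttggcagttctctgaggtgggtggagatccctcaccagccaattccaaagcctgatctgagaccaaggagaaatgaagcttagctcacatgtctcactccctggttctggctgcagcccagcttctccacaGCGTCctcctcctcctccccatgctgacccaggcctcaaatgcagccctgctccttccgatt
The sequences are from RefSeq on GRCm38.p6, which had a window for 8 of the 9 members. The start is the RefSeq start, whereas the gene spans given below are from Gencode. The Fezf2 and Psmb11 windows lie inside those spans, so they are not upstream of the whole gene as given there. GACGC was present in the Aire window at −189, the Fezf2 window at −179 and the Psmb11 window at −239 and −62, counted from the start, and absent from the Foxn1 window. It was in 4 of the 8 windows, the other being Pax1, and in 22.6% of all 32851 windows of this length. TATAAA was in the Aire window alone of the 8, at −29, and in 12.4% of all windows. A match is a description of the letters and not of a bound site.

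Per kilobase of exon, Ctsl had the highest level of the 9 genes, with a median of 2329.0 normalised counts per kb over the 39 tumours, followed by Prss16 (236.0), Aire (34.91), Cd80 (16.6), Pax9 (3.53) and Foxn1 (0.72). The medians of Fezf2, Psmb11 and Pax1 were 0. Means gave another picture for the genes that were high in few tumours. Aire averaged 240.44 per kb, close to Prss16 at 239.57, and Fezf2 (69.91) and Foxn1 (66.17) averaged more than Cd80 (22.77). Aire ranged between 0 and 1923.0 per kb, while Prss16 stayed between 75.72 and 425.7. The lowest Ctsl value, 644.9 per kb, was above the highest Prss16 value, and each other pair of neighbours in the order of medians overlapped.

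**Figure D1:**
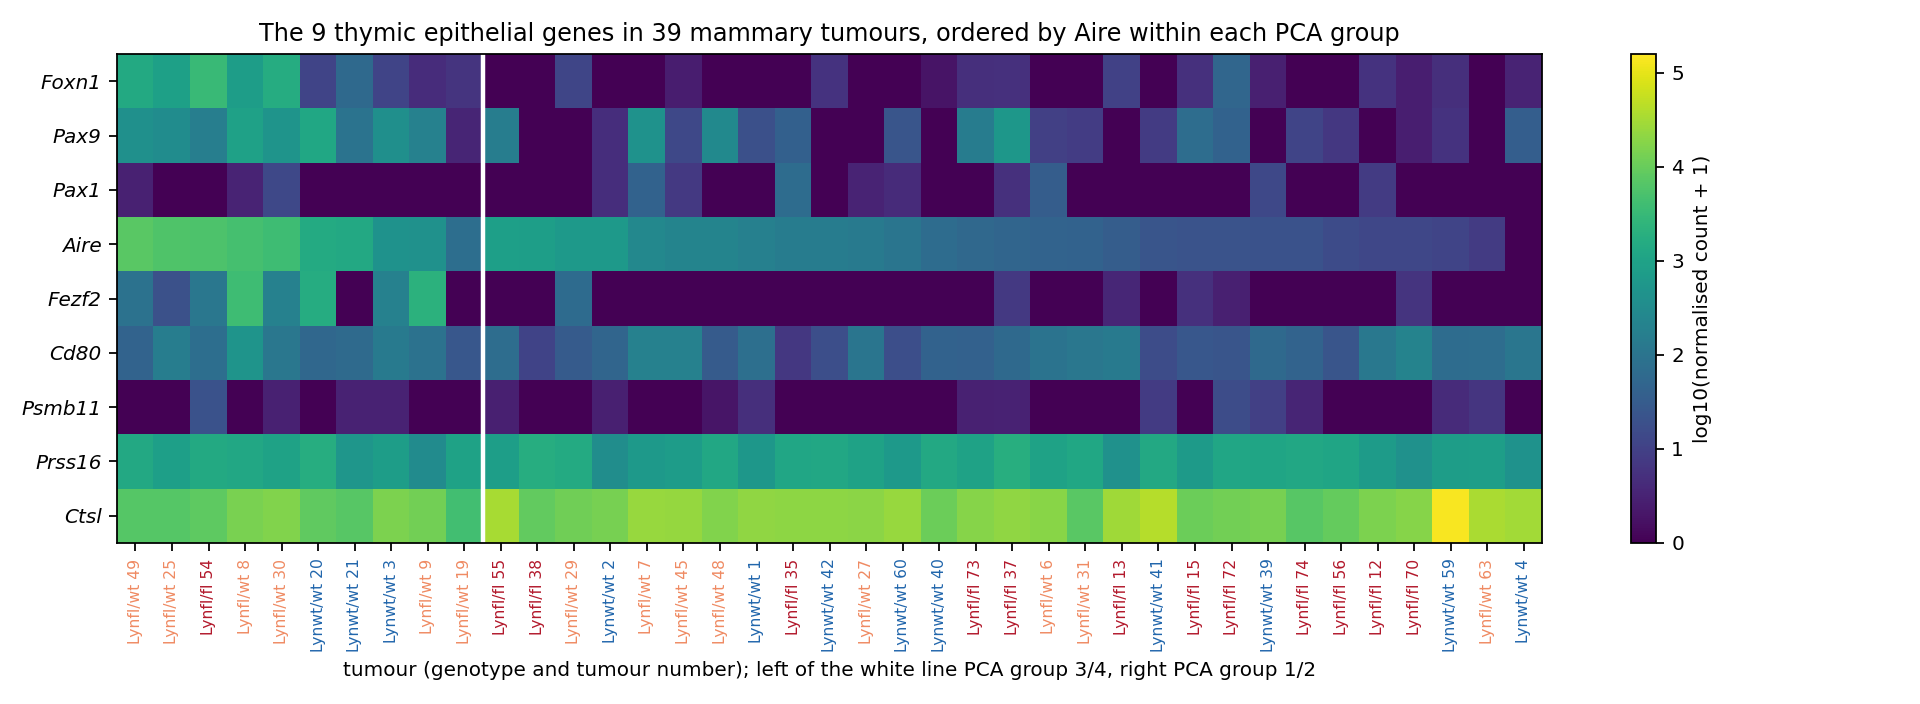
Heat map of the 9 genes (rows) in 39 tumours (columns, labelled by genotype and tumour number), coloured by log10(normalised count + 1); the 10 PCA group 3/4 tumours are left of the white line and the 29 PCA group 1/2 tumours right of it, each ordered by Aire. Foxn1 is bright in 5 tumours at the left, Psmb11 and Pax1 are dark almost throughout, and Prss16 and Ctsl are bright in every tumour.

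The PCA groups were made from the same expression values as these counts, and the differences between them were known when the genes were picked, so the following values are a description without a test. Of the general genes, Foxn1 (chr11:78357577-78386558, minus strand) had 3312.7 normalised counts in Lynfl/fl tumour 54, and 1623.1, 1472.8, 915.0 and 776.1 in Lynfl/wt tumours 30, 49, 25 and 8. The other 5 PCA group 3/4 tumours had 58.4, 10.8, 10.7, 5.0 and 3.5. In PCA group 1/2 the lowest and the median were 0 and the highest was 50.3, in Lynfl/fl tumour 72. Foxn1 exceeded 700 normalised counts, a level chosen after the values were seen, in 5 tumours, all of PCA group 3/4, and the highest of the other 34 was 58.4. The ratio of group means, PCA group 3/4 over PCA group 1/2, was 226.0-fold, and 150.0-fold without Lynfl/fl tumour 54.

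Pax9 (chr12:56691767-56712822, plus strand) was spread more widely. PCA group 3/4 tumours had a lowest of 2.5, a median of 358.2 and a highest of 1226.8 normalised counts, against 0, 7.3 and 567.5 in PCA group 1/2. Pax9 counts were therefore found in tumours of both groups, and the ratio of means was 6.48-fold, between 5.13 and 8.92 when each tumour was left out in turn. Pax9 overlaps the protein-coding gene Slc25a21 and an antisense gene, both on the opposite strand. The strand setting of the counting is not known, so Pax9 counts are less certain. Pax1 (chr2:147361925-147393295, plus strand) stayed low, with a highest value of 12.1 in PCA group 3/4 tumours and of 68.3 in PCA group 1/2 tumours. It had no count in 7 of 10 PCA group 3/4 tumours and in 19 of 29 PCA group 1/2 tumours. Pax1 overlaps an antisense gene as well. Of the other 7 genes of the Pax family, 3 passed the filter on low counts, of which Pax6 was higher (log2 fold change 3.91, SE 0.86, edgeR adjusted p 0.00076) and Pax3 lower (−6.05, SE 1.99, adjusted p 0.0238) in PCA group 3/4. The Pax3 medians were 1.9 normalised counts in PCA group 3/4 and 1.7 in PCA group 1/2, and the highest PCA group 1/2 value, 4906.0, was in Lynfl/wt tumour 48. The Pax6 medians were 7.2 in PCA group 3/4 and 2.1 in PCA group 1/2. Both calls were lost with DESeq2 and with limma voom blocked by mouse. Over all genes tested, 14.2% were called in either direction between the PCA groups.

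Of the medullary genes, Aire (chr10:78030022-78043610, minus strand) had 7353.9, 5890.9, 5651.2, 4551.6 and 3763.0 normalised counts in PCA group 3/4 tumours Lynfl/wt 49, Lynfl/wt 25, Lynfl/fl 54, Lynfl/wt 8 and Lynfl/wt 30. These 5 were the same tumours that had the 5 highest Foxn1 values. The other PCA group 3/4 tumours had 1502.6 and 1364.0 (Lynwt/wt 20 and 21), 452.0 (Lynwt/wt 3), 421.7 (Lynfl/wt 9) and 73.6 (Lynfl/wt 19). In PCA group 1/2, Aire had a lowest of 0, a median of 49.2 and a highest of 879.6. All 10 PCA group 3/4 tumours were above the PCA group 1/2 median, and 7 were above its highest value. The ratio of means was 18.6-fold and stayed between 15.7 and 21.9 when each tumour was left out in turn.

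Aire was also found without Foxn1. In PCA group 1/2, Lynfl/fl tumour 55 had 879.6, Lynfl/fl tumour 38 had 835.6 and Lynwt/wt tumour 2 had 616.3 normalised Aire counts, each with 0 counts of Foxn1. Aire overlaps Dnmt3l, a gene on the opposite strand, and the strand setting of the counting is not given in the sources used here. Dnmt3l was at 16.8, 80.6 and 194.5 (lowest, median, highest) in PCA group 3/4 tumours and at 0, 11.9 and 77.9 in PCA group 1/2 tumours. Its level stayed far below that of Aire in the tumours with the most Aire.

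Fezf2 (chr14:12342094-12348189, minus strand) was highest in tumours that overlapped those highest for Foxn1 only in part. In PCA group 3/4 it had 3803.2 and 2191.7 normalised counts in Lynfl/wt tumours 8 and 9 and 1621.6 in Lynwt/wt tumour 20. The remaining PCA group 3/4 tumours had 193.8, 188.9, 115.6, 89.7, 18.9, 0 and 0. In PCA group 1/2 it had no count in 23 of 29 tumours, and the highest value was 64.6, in Lynfl/wt tumour 29. Of the 3 tumours above 700, only Lynfl/wt tumour 8 was also above 700 for Foxn1. Of the other tumours above 700 for Foxn1, Lynfl/wt 30, Lynfl/fl 54 and Lynfl/wt 49 had 193.8, 115.6 and 89.7 Fezf2 counts. These were above the highest PCA group 1/2 value, while Lynfl/wt tumour 25 was at 18.9. The ratio of means was 281.0-fold and ran between 168.0 and 1140.0 when each tumour was left out in turn, the last without Lynfl/wt tumour 29.

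Cd80 (chr16:38455561-38496335, plus strand), a costimulator of T cells on dendritic cells, B cells and medullary epithelium, overlapped between the groups. It ran between 24.9 and 485.5 normalised counts with a median of 82.0 in PCA group 3/4, and between 6.0 and 215.3 with a median of 57.9 in PCA group 1/2. Its ratio of means was 1.77-fold, and 1.2-fold without Lynfl/wt tumour 8, which held the value of 485.5.

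**Figure D2:**
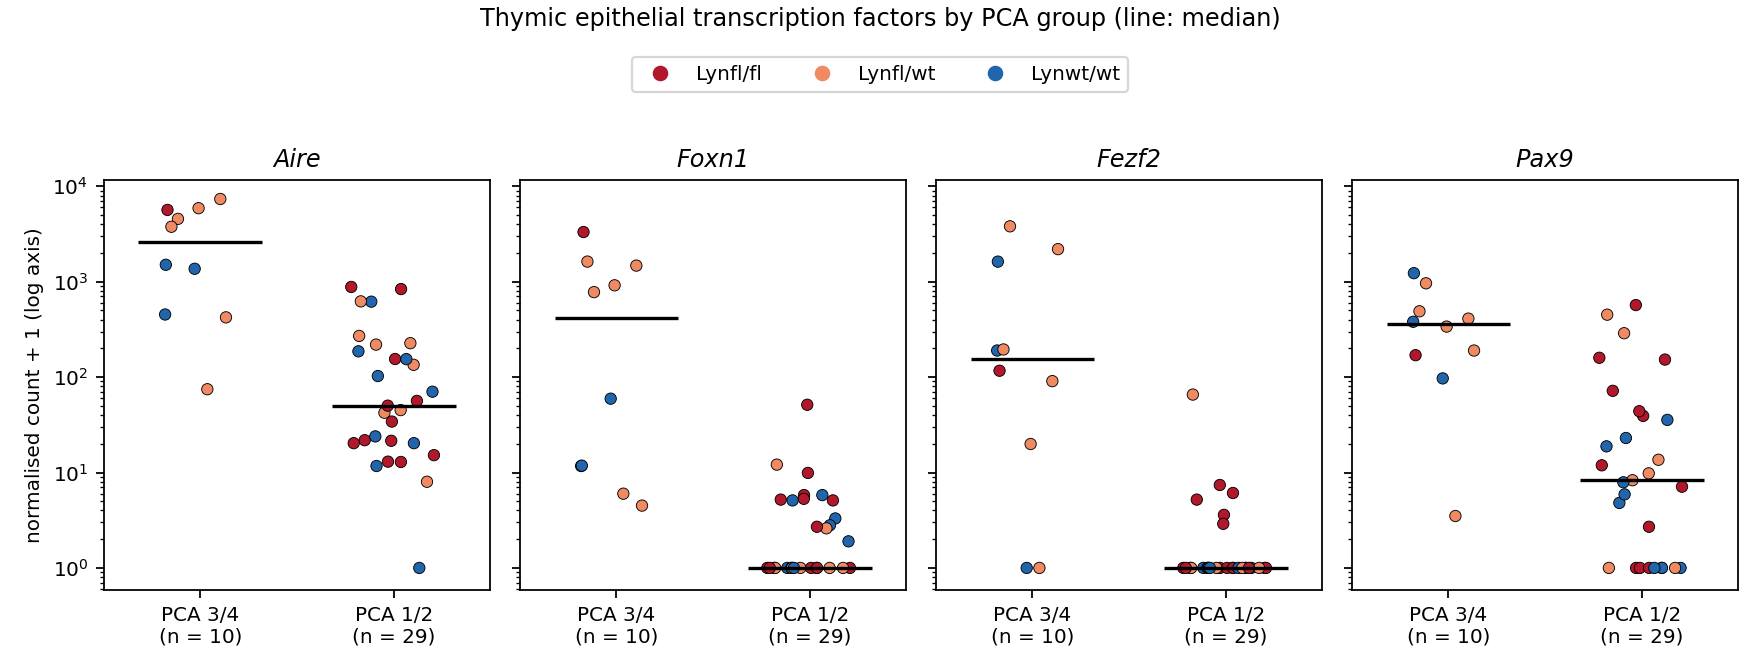
Normalised count + 1 (log axis) of Aire, Foxn1, Fezf2 and Pax9 in each tumour, with PCA group 3/4 (n = 10) left of PCA group 1/2 (n = 29), coloured by genotype, with a line at the median. Foxn1 splits PCA group 3/4 into 5 tumours above 700 and 5 at 58.4 or less, and Fezf2 is at 0 in most PCA group 1/2 tumours.

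The cortical genes did not share this pattern. Psmb11 (chr14:54621433-54629556, plus strand), the thymoproteasome subunit found almost only in cortical thymic epithelium, had no count in 6 of 10 PCA group 3/4 tumours and in 17 of 29 PCA group 1/2 tumours, and its highest values were 19.9 and 14.9. The 19.9 was in Lynfl/fl tumour 54, the tumour with the most Foxn1. Prss16 (chr13:22002173-22009742, minus strand) averaged 1038.0 ± 436.0 normalised counts in PCA group 3/4 (SD, n = 10) and 989.8 ± 394.0 in PCA group 1/2 (SD, n = 29), a ratio of 1.05. Ctsl (chr13:64359337-64370890, minus strand), a protease that most cells carry in lysosomes, ran between 4185.0 and 16117.7 with a median of 8409.0 in PCA group 3/4, against 7061.1 and 138692.9 with a median of 18796.2 in PCA group 1/2. Its ratio of means was 0.428, and 0.519 without Lynwt/wt tumour 59, which held the highest value. Ctsl overlaps an antisense gene and a pseudogene, so its counts are less certain.

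The first part of a tumour's ID, 20 or 21, was used as a batch, and 7 of the 10 PCA group 3/4 tumours against 11 of the 29 PCA group 1/2 tumours had IDs beginning 20. By genotype, 4 of 13 Lynfl/fl, 8 of 14 Lynfl/wt and 6 of 12 Lynwt/wt tumours had such IDs. Among IDs beginning 20 the Aire medians were 1364.0 in PCA group 3/4 (n = 7) and 133.5 in PCA group 1/2 (n = 11). Among IDs beginning 21 they were 5651.2 (n = 3) and 45.2 (n = 18). Foxn1 medians were 10.8 in PCA group 3/4 and 0 in PCA group 1/2 among IDs beginning 20, and 1623.1 in PCA group 3/4 and 0.5 in PCA group 1/2 among IDs beginning 21. The direction was thus the same within each ID series for both genes, but most of the Foxn1 in PCA group 3/4 was in the 3 tumours with IDs beginning 21. Fezf2 averaged 1117.8 in PCA group 3/4 and 6.49 in PCA group 1/2 among IDs beginning 20. Among IDs beginning 21 it averaged 133.0 and 0.744. The 3 tumours above 700 Fezf2 counts all had IDs beginning 20, and Lynfl/wt tumours 8 and 9 came from the same mouse.

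Among the 28 mice were 9 from which several tumours had been sequenced, 20 tumours together, so tumours of the same animal could be set side by side. Of these mice 4 had a tumour above 700 normalised Foxn1 counts, and in each the other tumours were near 0. Lynfl/fl tumour 54 had 3312.7 and tumour 55 of the same mouse had 0. Lynfl/wt tumours 30 and 31 of another mouse had 1623.1 and 0, and Lynfl/wt tumours 49 and 63 of a further mouse had 1472.8 and 0. In the fourth mouse, Lynfl/wt tumours 8, 9 and 19, all of PCA group 3/4, had 776.1, 3.5 and 5.0 Foxn1 counts, 4551.6, 421.7 and 73.6 Aire counts, and 3803.2, 2191.7 and 0 Fezf2 counts. Aire differed less between tumours 54 and 55, at 5651.2 and 879.6. A further mouse was mixed for Aire. Its PCA group 3/4 tumour Lynwt/wt 3 had 452.0 Aire counts and PCA group 1/2 tumours Lynwt/wt 2 and 4 had 616.3 and 0.

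**Figure D3:**
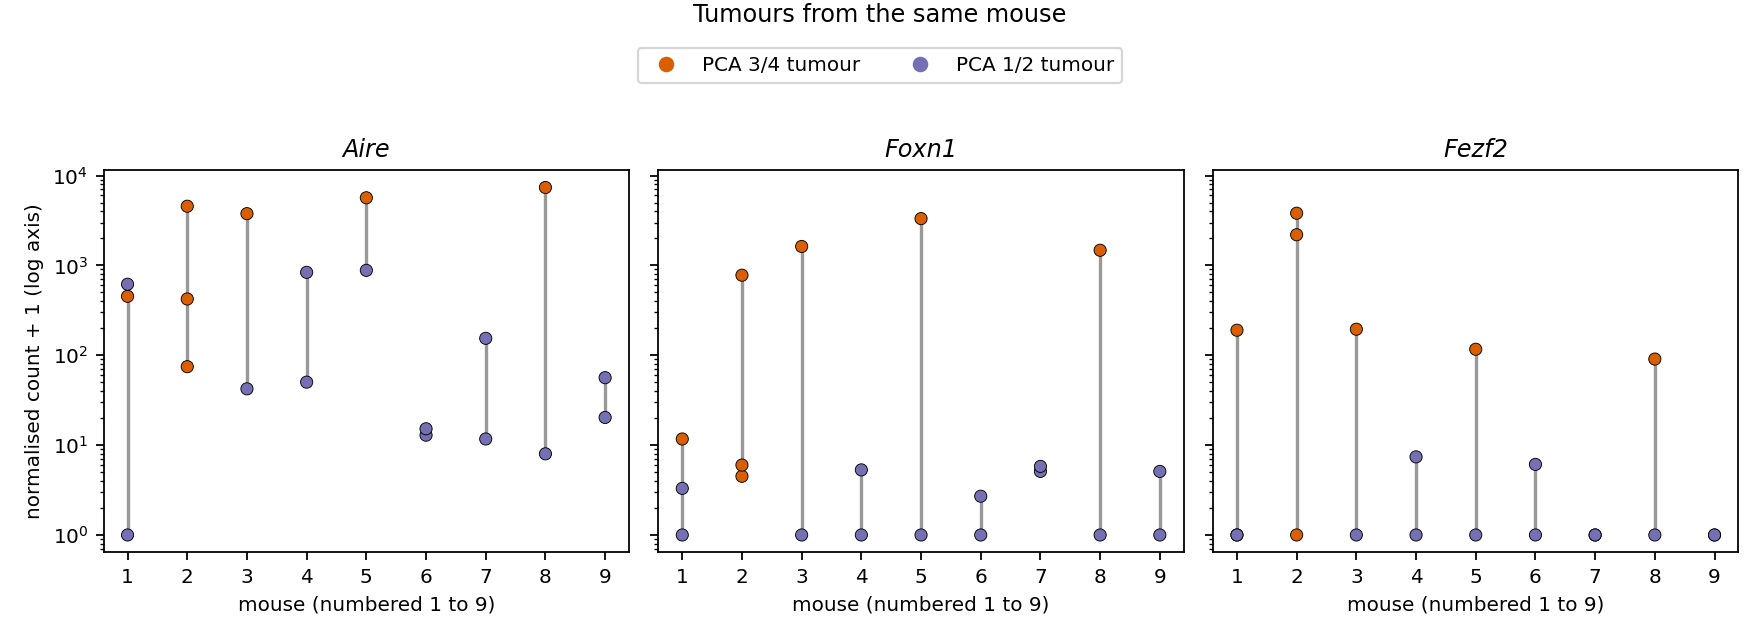
Normalised count + 1 (log axis) of Aire, Foxn1 and Fezf2 in the 20 tumours of the 9 mice with more than 1 tumour, joined by a line within each mouse and coloured by PCA group. In 3 mice Foxn1 was between 1472.8 and 3312.7 in the PCA group 3/4 tumour, against 0 in the PCA group 1/2 tumour.

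In the thymus, RANK, CD40 and lymphotoxin β receptor signal through NIK (Map3k14) and the noncanonical NF-κB subunits RELB and NFKB2 to switch on Aire. The PCA groups were formed from these same expression values, so the calls for other genes describe that split. Of 13 genes of this pathway, 12 were tested and 8 were higher and 0 lower in PCA group 3/4, where 7.71% of the 19453 genes tested were called higher and 6.45% lower (edgeR quasi-likelihood test, adjusted p under 0.05 and at least 2-fold). Their median log2 fold change was 1.97, against −0.05 over all genes. Nfkb2 ran between 21580.4 and 62121.5 normalised counts in PCA group 3/4 tumours, against 3491.5 and 27290.2 in PCA group 1/2 tumours (log2 fold change 2.14, SE 0.20, adjusted p 8.94e-11). Relb ran between 4691.2 and 25506.1, against 788.6 and 6759.8 (2.38, SE 0.23, adjusted p 3.26e-10). Map3k14 (2.06, SE 0.27, adjusted p 2.82e-07) and Tnfrsf11b, the decoy receptor for the RANK ligand (2.66, SE 0.40, adjusted p 3.4e-06), were higher too. The groups overlapped in 1 or more tumours for both Nfkb2 and Relb.

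Other medullary genes were also higher. Of 14 listed, 12 were tested and 8 were higher and 0 lower in PCA group 3/4, against 7.71% and 6.45% of all genes. Spib, a transcription factor of medullary epithelium and of B cells, had a median of 67681.3 normalised counts in PCA group 3/4 and of 32.0 in PCA group 1/2 (log2 fold change 9.82, SE 0.80, adjusted p 5.43e-12), and the groups overlapped, with a lowest value of 345.9 in PCA group 3/4 and a highest of 1023.6 in PCA group 1/2. Ctss, a lysosomal protease of antigen-presenting cells (1.44, SE 0.26), Ciita, the master regulator of MHC class II genes (1.25, SE 0.29), and Ccl17, a chemokine for T cells (2.24, SE 0.52), were also higher at adjusted p between 7.28e-05 and 0.00142.

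Of 12 further cortical genes, 11 were tested, with 4 higher and 1 lower, against 7.71% and 6.45% of all genes. Cd83 (1.78, SE 0.28), Psmb9, an immunoproteasome subunit (1.89, SE 0.36), and Il7, a cytokine for lymphocytes (1.90, SE 0.40), were higher, and Kitl, the KIT ligand, was lower (−2.01, SE 0.40), with adjusted p between 5.78e-06 and 0.000441. Of 10 other regulators of thymus development, 1 was higher, Wnt4 (1.64, SE 0.51, adjusted p 0.0163), and 0 lower. This was 1 call among 10, against 14.2% of all genes called in either direction. The median of these 10 was −0.70. Hoxa3 (−2.06, SE 0.78, adjusted p 0.0516) and Trp63 (−1.86, SE 0.85, adjusted p 0.112) did not pass.

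Of 14 partners of AIRE, 1 was higher and 1 lower, against 14.2% of all genes called in either direction. Hipk2, a kinase, was higher (1.09, SE 0.26, adjusted p 0.00186), and Xrcc5, a DNA repair protein, was lower (−1.29, SE 0.29, adjusted p 0.000858). Of 10 genes whose expression in the thymus depends on AIRE or FEZF2, 9 were in the table and 0 passed the filter on low counts. Ins2 reached at most 2 counts in any tumour, and only Calb1 exceeded 19 counts, with 192 in Lynfl/wt tumour 30. This PCA group 3/4 tumour had 3763.0 normalised counts of Aire and 193.8 of Fezf2. Calb1 had no count in 34 tumours. Its median was 0 in PCA group 3/4, and its highest value in PCA group 1/2 was 8.6 normalised counts.

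Of 12 genes of hair and skin, where FOXN1 also acts, 8 were tested. Among them 2 were higher and 2 lower, against 7.71% and 6.45% of all genes. The hair follicle keratins Krt73 (2.95, SE 0.88, adjusted p 0.0121) and Krt27 (1.97, SE 0.71, adjusted p 0.0401) were higher, and Krt71 (−4.86, SE 1.74, adjusted p 0.0379) and the corepressor Hr (−1.13, SE 0.35, adjusted p 0.0154) lower. The highest Krt73 value, 372.0 normalised counts, was in Lynwt/wt tumour 21, and the highest Krt27 value, 772.5, in Lynwt/wt tumour 20. Foxn1 was at 58.4 and 10.8 normalised counts in these tumours. The Krt71 medians were 3.2 in PCA group 3/4 and 4.8 in PCA group 1/2, where the highest value was 5698.2, in Lynwt/wt tumour 41. Krt73 and Krt71 lost their calls with the ID series as a covariate, and Hr and Krt71 with limma voom blocked by mouse.

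Of 8 genes of the CD28 axis, to which CD80 belongs, 6 were higher and 0 lower, against 7.71% and 6.45% of all genes. Icosl, the ligand of ICOS, had a median of 2808.9 normalised counts in PCA group 3/4 and of 499.5 in PCA group 1/2 (log2 fold change 2.98, SE 0.27, adjusted p 6.56e-11). Pdcd1lg2 (2.64, SE 0.68), Cd274 (1.36, SE 0.38) and Cd86 (1.11, SE 0.28) were higher at adjusted p between 0.00285 and 0.007, the call of Cd86 being lost with the ID series as a covariate.

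**Figure D4:**
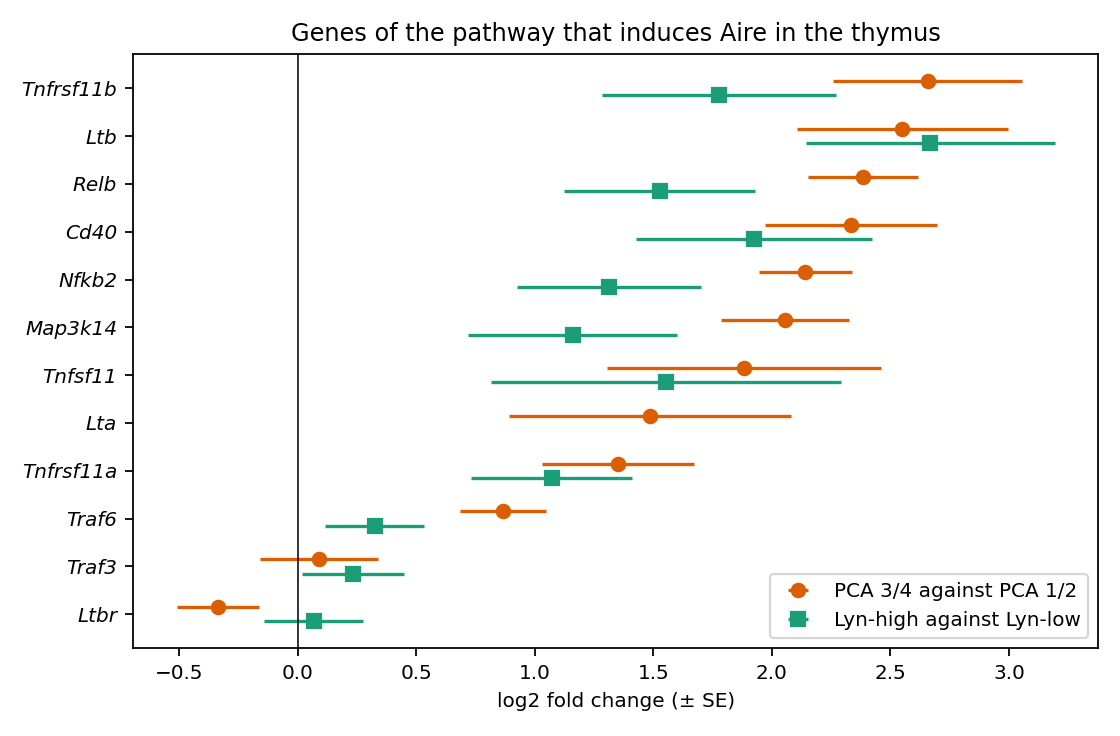
Log2 fold change ± SE from the edgeR fits of the tested genes of the pathway that induces Aire in the thymus, for PCA 3/4 against PCA 1/2 (circles) and Lyn-high against Lyn-low (squares). Of the 12 genes with a circle, 8 were called higher, with Tnfrsf11b at 2.66 and Relb at 2.38, and none was called lower.

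Markers of other cells moved with the PCA groups as well, where 7.71% of all genes were called higher and 6.45% lower. Of 8 B cell markers, Cr2 (9.84, SE 0.80, adjusted p 5.26e-12) and Fcer2a (3.86, SE 0.84, adjusted p 0.000729) were higher, and the summed level of the list ran between 225.9 and 36436.5 normalised counts in PCA group 3/4 tumours, against 88.4 and 5280.2 in PCA group 1/2 tumours. In PCA group 3/4 the median was 42.9 for Ms4a1, a B cell surface protein gene, far below the 6476.6 of Cr2. In PCA group 1/2 the medians were 7.2 for Ms4a1 and 1.6 for Cr2. Of 8 dendritic markers tested 4 were higher, among them Zbtb46 (2.95, SE 0.30, adjusted p 1.2e-09), and the summed level ran between 7312.8 and 44726.9, against 2840.0 and 40423.7. Fscn1 had the highest medians of the dendritic list, 8470.0 in PCA group 3/4 and 10344.7 in PCA group 1/2. The medians of the dendritic sums were 19498.5 and 19077.7, so Fscn1 weighed heavily in them. Of 8 T cell markers 4 were higher, with sums between 763.2 and 12357.5, against 234.3 and 6917.1. Of 7 lymph node stroma genes in the table, Madcam1 was higher (7.75, SE 0.65, adjusted p 1.13e-11), with sums between 917.6 and 24207.9, against 205.6 and 9263.2. Madcam1 alone was at 21533.0 in Lynfl/wt tumour 30, which held the sum of 24207.9. Of 7 thymocyte markers tested 1 was higher, Cd3e, which T cells share. The summed mammary epithelial markers ran between 162661.9 and 473063.9, against 109775.7 and 510613.8, with Csn2, a milk casein, higher and Lalba lower. Of 4 salivary gland markers tested 3 were lower, with sums between 587.0 and 6645.2, against 2878.3 and 335565.3. These sums were almost all Aqp5, with medians of 1597.0 in PCA group 3/4 and 55731.3 in PCA group 1/2. The medians of the salivary sums were 1650.5 and 55877.2. No skeletal muscle marker passed, but 5 of 7 had an unadjusted p under 0.05, against 34.2% of all genes. The median log2 fold change of the muscle markers was −4.81. Their sums ran between 501.2 and 6834.1 with a median of 959.7 in PCA group 3/4 tumours, against 121.1 and 210873.6 with a median of 1187.1 in PCA group 1/2 tumours. None of 3 neural markers tested passed. The part of these cells in the levels of Aire, Foxn1 and Fezf2 was not tested.

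Between Lyn-high and Lyn-low tumours, the Aire medians were 73.6 and 69.3 normalised counts, and 6 of the 13 Lyn-high tumours were below the Lyn-low median. The 4 Lyn-high tumours above the highest Lyn-low value, 879.6, had 5890.9, 4551.6, 1502.6 and 1364.0 and were all of PCA group 3/4. The ratio of means was 4.12-fold, and 2.62-fold without Lynfl/wt tumour 25. Foxn1 ran between 0 and 915.0 with a median of 5.0 in Lyn-high tumours, against 0 and 11.1 with a median of 0 in Lyn-low tumours. Fezf2 had no count in 7 of 13 Lyn-high and in 11 of 13 Lyn-low tumours. Cd80 had medians of 94.7 and 41.8, and 11 of 13 Lyn-high tumours were above the Lyn-low median. These values too are a description without a test, since earlier results on Lyn groups were known when the genes were picked.

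All 13 Lyn-low tumours were of PCA group 1/2, so the comparison was repeated within that group. There the 7 Lyn-high tumours had an Aire median of 22.9 and a highest value of 269.1, against 69.3 and 879.6 in the 13 Lyn-low tumours. Foxn1 reached at most 8.9 in these Lyn-high tumours and 11.1 in the Lyn-low tumours. In Lyn-high tumours the medians were 94.7 for Cd80, 25249.3 for Ctsl and 772.9 for Prss16. In Lyn-low tumours they were 41.8 for Cd80, 13325.2 for Ctsl and 1192.6 for Prss16. Within PCA group 1/2 the Lyn-high tumours therefore did not carry the high Aire or Foxn1 values of the pooled comparison.

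Over all the pathway lists, 69 genes were tested between Lyn-high and Lyn-low tumours and 16 were higher and 0 lower, against 5.52% of 17709 genes called higher. Spib (9.08, SE 1.53, adjusted p 0.000276), Icosl (2.32, SE 0.44, adjusted p 0.000907), Cd83 (1.93, SE 0.36, adjusted p 0.000787), Relb (1.53, SE 0.40, adjusted p 0.0162) and Nfkb2 (1.31, SE 0.39, adjusted p 0.0347) were among them. Within PCA group 1/2 3 of the listed genes were called, and Nfkb2 was at −0.23 on the log2 scale. With the ID series as a covariate 8 were called, 9 of 13 Lyn-high tumours having IDs beginning 20 against 4 of 13 Lyn-low tumours.

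Markers of other cells differed between the Lyn groups as well. Of the marker genes tested, 6 of 8 for T cells, 6 of 6 for B cells, 6 of 8 for dendritic cells, 5 of 7 on the thymocyte list and 2 of 5 for lymph node stroma were called higher in Lyn-high tumours. Over all genes 5.52% were called higher there. The 5 genes called on the thymocyte list were Cd3e, Cd4, Cd8a, Cd8b1 and Themis, which mature T cells also express, and Rag1, Rag2, Dntt and Ptcra were at or near 0 in every tumour. Summed B cell markers ran between 352.0 and 20823.1 normalised counts in Lyn-high tumours, against 88.4 and 349.5 in Lyn-low tumours. The groups did not overlap, but the nearest values were 352.0 and 349.5. The sum of 20823.1 was in Lynwt/wt tumour 20, of PCA group 3/4. In PCA group 3/4 tumours Ms4a1 reached at most 283.7, and no B cell marker other than Cr2 exceeded 2697.1. Most of that sum was therefore Cr2, so the sums do not measure the number of B cells. The paper states that B cells express Lyn, and the Lyn groups were made from Lyn counts of the same tumours. The B cell sums are therefore not independent of the grouping. Summed dendritic markers ran between 2840.0 and 44726.9 normalised counts in Lyn-high tumours, against 3698.0 and 27694.1 in Lyn-low tumours. The dendritic medians were 19077.7 in Lyn-high and 21236.8 in Lyn-low tumours. Summed T cell markers ran between 234.3 and 12357.5, against 294.4 and 1508.0. Lynfl/wt tumour 8, with the most Cd80, had the highest dendritic sum. The part of these cells in the level of Cd80 was not tested between Lyn groups.

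The comparison of Lyn genotypes did not choose these genes, and 5 of the 9 passed the filter on low counts and were tested. None of the 5 passed the threshold. The mean Aire level was 596.7 ± 1550.0 for the 13 Lynfl/fl tumours, 1686.7 ± 2551.0 for the 14 Lynfl/wt tumours and 374.8 ± 530.0 for the 12 Lynwt/wt tumours (± SD). Its medians were 33.2, 247.4 and 127.5. The Lynfl/fl mean rested on tumour 54, without which the ratio to Lynwt/wt was 0.468 in place of 1.59. The log2 fold change was 0.68 (SE 1.07, edgeR adjusted p 0.863) for Lynfl/fl against Lynwt/wt and 2.18 (SE 1.11, adjusted p 0.465) for Lynfl/wt against Lynwt/wt, where 6 of 14 Lynfl/wt tumours but 3 of 12 Lynwt/wt tumours were of PCA group 3/4. With the PCA group as a covariate the second value was 0.84 (SE 0.82, adjusted p 0.827).

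Of the 5 members tested, Ctsl had the smallest p in both comparisons. It averaged 16344.3 ± 8180.0 in Lynfl/fl tumours, 15665.9 ± 8480.0 in Lynfl/wt tumours and 28759.4 ± 35997.0 in Lynwt/wt tumours, with medians of 15114.2, 15283.5 and 17649.3. The log2 fold changes against Lynwt/wt were −0.82 (SE 0.38, adjusted p 0.39) and −0.90 (SE 0.37, adjusted p 0.358). Without Lynwt/wt tumour 59, at 138692.9, the Lynfl/fl ratio was 0.871 in place of 0.568. Cd80 was at 0.12 (SE 0.47, adjusted p 0.949) in Lynfl/fl and 1.08 (SE 0.47, adjusted p 0.378) in Lynfl/wt tumours, and Prss16 at 0.22 (SE 0.26, adjusted p 0.802) and 0.13 (SE 0.25, adjusted p 0.902). Pax9 was at −0.64 (SE 1.20, adjusted p 0.889) and 0.59 (SE 1.18, adjusted p 0.905). Within PCA group 1/2 the Pax9 value for Lynfl/fl against Lynwt/wt was 3.13 (SE 1.39, adjusted p 0.331), the opposite direction.

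**Figure D5:**
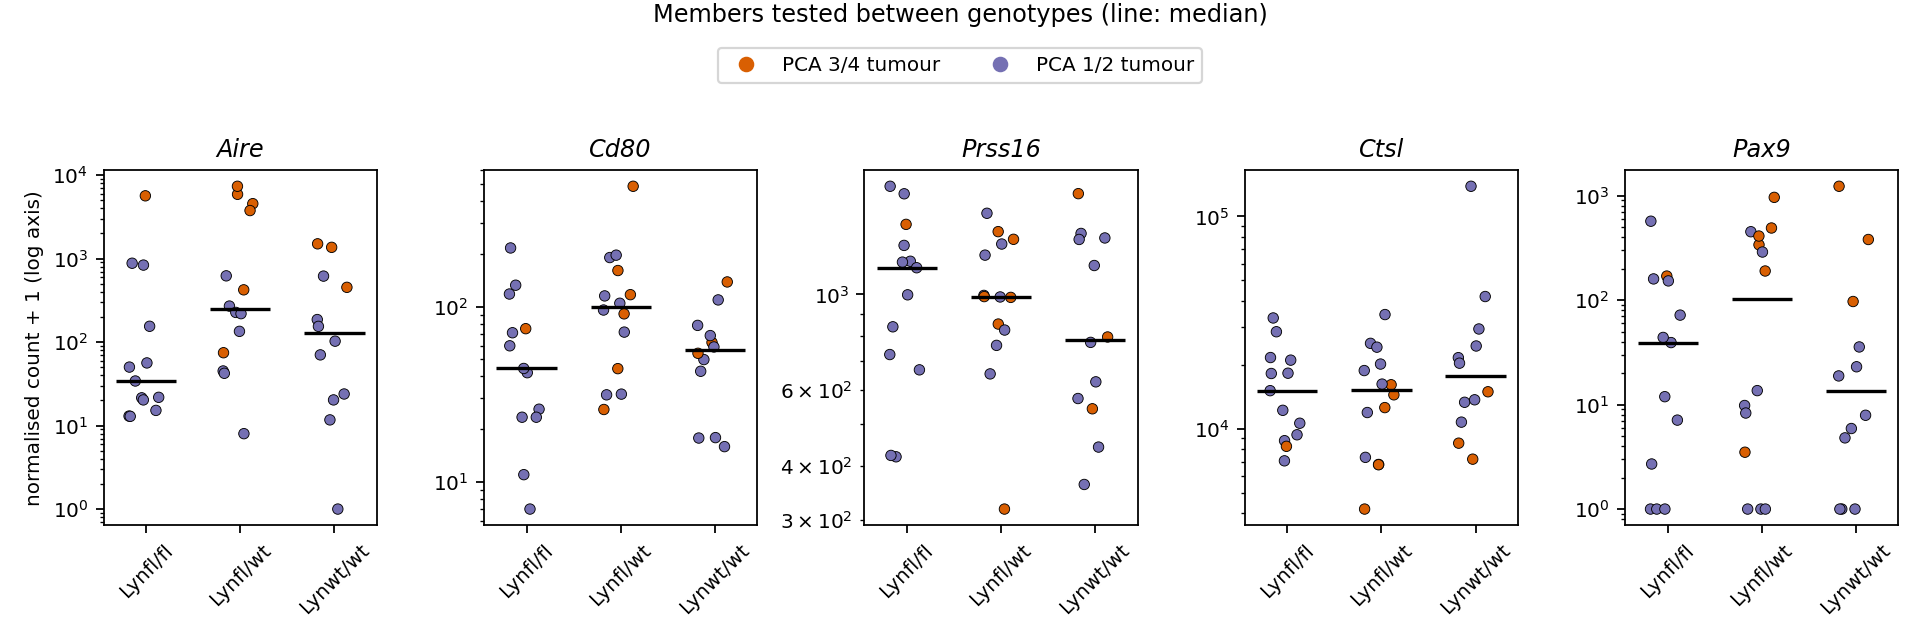
Normalised count + 1 (log axis) of the 5 members tested between genotypes, with Lynfl/fl (n = 13) and Lynfl/wt (n = 14) left of Lynwt/wt (n = 12), coloured by PCA group, with a line at the median. The genotypes overlap for every gene, and the Lynwt/wt tumour at 138692.9 stands apart for Ctsl.

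Foxn1, Fezf2, Psmb11 and Pax1 were too low in most tumours to pass the filter in this fit. Foxn1 averaged 260.8 ± 917.0 in Lynfl/fl tumours, 343.4 ± 594.0 in Lynfl/wt tumours and 7.82 ± 16.4 in Lynwt/wt tumours. Without the filter its log2 fold changes were 5.03 (SE 1.72, edgeR adjusted p 0.13) and 5.43 (SE 1.74, adjusted p 0.11), and without tumour 54 the Lynfl/fl ratio of 33.4 became 0.835. None of the 9 members was called in either genotype comparison, where 0.0316% of 18998 genes were called for Lynfl/fl tumours (0.00526% higher and 0.0263% lower) and 0.0158% for Lynfl/wt tumours, all lower. Of the 5 members tested, Ctsl alone had an unadjusted p under 0.05 in Lynfl/fl tumours (11.5% of all genes), and Ctsl and Cd80 in Lynfl/wt tumours (11.2%). Of 76 listed pathway genes tested, 0 were called in either comparison, with 11 and 17 at an unadjusted p under 0.05.

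Whether the members varied together was asked within PCA group 1/2 (n = 29 tumours from 24 mice), by permutation tests of 36 pairs with Benjamini-Hochberg adjustment. Cd80 and Prss16 ran in opposite directions, with Spearman's rho −0.57 (permutation p 0.00155, adjusted p 0.0279) and Pearson's r −0.55 (permutation p 0.00235, adjusted p 0.0846). Without the 2 tumours farthest from the Cd80 median, r was −0.48 and the adjusted p of rho was 0.0986. With 1 mean value per mouse (n = 24) rho was −0.49, and its adjusted permutation p of 0.3 did not pass. Spearman's coefficient was −0.41 among IDs beginning 20 (n = 11) and −0.51 among IDs beginning 21 (n = 18), and neither passed the adjustment. Fezf2 and Foxn1 had a rho of 0.63 (permutation p 0.00022, adjusted p 0.00792) but an r of 0.28 (permutation p 0.0395, adjusted p 0.474), and this rested on counts at or near 0. Without the 2 tumours farthest from the Fezf2 median, r was 0.34 and the adjusted p of rho was 0.0986, and rho was 0.78 and 0.53 within the ID series. With 1 mean value per mouse rho was 0.63 (adjusted permutation p 0.0389). Aire and Foxn1 had a rho of −0.28 (permutation p 0.146, adjusted p 0.782) and an r of −0.17 (permutation p 0.403, adjusted p 0.816) among these tumours, and r was −0.12 without the 2 tumours farthest from the Aire median. The remaining pairs did not pass.

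Cd80 was also compared with the mean log2 level of 9 lists of markers of other cells in these 29 tumours. It was correlated with dendritic markers (rho 0.59, permutation p 0.0009, adjusted p 0.00405, and r 0.65, permutation p 0.0001, adjusted p 0.0009), lymph node stroma genes (rho 0.61, permutation p 0.00068, adjusted p 0.00405, and r 0.59, permutation p 0.00088, adjusted p 0.0031), T cell markers (rho 0.49, permutation p 0.00802, adjusted p 0.0241, and r 0.57, permutation p 0.00131, adjusted p 0.0031) and B cell markers (rho 0.45, permutation p 0.0149, adjusted p 0.0336, and r 0.55, permutation p 0.00138, adjusted p 0.0031). Without the 2 tumours farthest from the Cd80 median, r was 0.60, 0.58, 0.49 and 0.49 in that order, and the rho of T and B cell markers no longer passed. With 1 mean value per mouse (n = 24) rho was 0.59, 0.64, 0.46 and 0.47. T and B cell markers did not pass there either, each at an adjusted permutation p of 0.053. Within IDs beginning 20 (n = 11) rho was 0.52, 0.76, 0.48 and 0.53, and within IDs beginning 21 (n = 18) 0.55, 0.54, 0.40 and 0.37, none passing the adjustment. Mammary epithelial markers had a rho of 0.0064 with Cd80 (permutation p 0.974, adjusted p 0.974) and an r of 0.0076 (permutation p 0.968).

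As a description over the 39 tumours, which share the split between PCA groups, the genes whose pattern was most like Aire by Spearman's rho of log2 CPM were Cnnm1 (0.758), Serpina12 (0.734), Tet1 (0.729), Myrf (0.711) and Pard6g (0.694). Those most like Foxn1 were Nfkbie (0.792), Trim65 (0.785), Nfkbia (0.778), H2-M2 (0.770) and H2-K2 (0.767). Nfkbie and Nfkbia encode inhibitors of NF-κB, and Nfkbia had medians of 35115.2 normalised counts in PCA group 3/4 and 7128.3 in PCA group 1/2. Those most like Fezf2 were RP23-136C5.4 (0.737), Prkcd (0.727), Foxa2 (0.726), P2rx5 (0.720) and RP23-173C3.1 (0.718). Foxa2, a transcription factor of endoderm, had medians of 77.4 in PCA group 3/4 and 0 in PCA group 1/2.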

How the data were processed

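RNAseq had been done on poly(A) RNA of 39 tumours. Per the labels and the methods, the authors aligned reads with STAR 2.5.1b to GRCm38 and made the deposited raw counts per gene with featureCounts 1.5.1. Small counts were mostly even, as when both mates of a pair are counted. The members and gene lists were chosen with earlier results of these data known.

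Genotype, PCA and Lyn groups were taken from the labels. Counts were filtered with filterByExpr, scaled by TMM and tested with edgeR 4.0.16 (R 4.3.3), by the quasi-likelihood test with Benjamini-Hochberg adjustment over all genes tested. Calls needed an adjusted p under 0.05 together with a change of at least 2-fold. Tumours were the unit, and some share a mouse, so p-values measure the spread between tumours. Alternatives used DESeq2 1.42.0, limma 3.58.1, other filters, and covariates. Correlations used log2(CPM + 0.5) and 100000 permutations. The edgeR fit was tested on simulated data. Named genes were the members, up to 4 genes per list with the smallest p between PCA groups, and the 5 genes most like Aire, Foxn1 and Fezf2. Dnmt3l, Ms4a1, Krt8, Ins2, Calb1 and the thymocyte genes at or near 0 were named after their values were seen. Prss16 had no promoter window in the sequences used here.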

Additional observations from a re-analysis of the deposited data

Results flagged for a closer look

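Among the 10 PCA group 3/4 tumours, each of the 9 genes was searched for a highest or lowest tumour that stood apart, by Dixon's ratio of the gap to the range and its 95% critical value for 10 values. Chance flags about 1 in 20 groups where values are normally distributed. The counts here were skewed, with Psmb11 at 0 in 6 and Pax1 at 0 in 7 of the 10 tumours. That rate therefore does not apply to them, and the flags are a description. Cd80 had 485.5 normalised counts in Lynfl/wt tumour 8, with the next at 159.8 (ratio 0.707). Foxn1 had 3313 in Lynfl/fl tumour 54, with the next at 1623 (ratio 0.511). Psmb11 had 19.9 in the same tumour, with the next at 2.1 (ratio 0.894). Pax1 had 12.1 in Lynfl/wt tumour 30, with the next at 2.3 (ratio 0.81). The Psmb11 and Pax1 values are low counts.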

How the results depend on the processing

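No paired analysis was possible by tumour number, because the numbers are not shared between groups. The mouse was used as a block instead, and 4 mice had tumours of both PCA groups. No member was called between genotypes under any alternative, and 35 listed genes were called between PCA groups, a count that stayed within 1.5 times. Between Lyn groups 16 listed genes were called, against 26 with DESeq2, 8 with the ID series as a covariate, 9 with limma voom blocked by mouse and 3 in PCA group 1/2 alone, where Nfkb2 was at −0.23. For Lynfl/fl against Lynwt/wt, the block by mouse gave −0.31 for Aire, −0.17 for Cd80 and 0.43 for Pax9, and Pax9 was 0.33 with the ID series, 2.10 with the PCA group as a covariate and 3.13 in PCA group 1/2 alone. Of the pairs of members, 2 passed, against 0 without the 2 farthest tumours, 1 (Fezf2 and Foxn1) with a mean per mouse and 0 within each ID series. Of the Cd80 correlations with cell markers, 4 passed, against 2, 2 and 0. Over all genes, Lynfl/fl calls were 6, against 120 with DESeq2, 20 without a filter, 37 with the PCA group, 14 in PCA group 1/2 alone and 0 with the CPM filter, ID series, block or sums per mouse. Lynfl/wt calls were 3, against 148 with DESeq2, 47 without a filter and 0 with the CPM filter, ID series, block or PCA group. PCA calls were 2753, against 4858 without a filter. Lyn calls were 1068, against 1780 with DESeq2, 1859 without a filter, 547 with the ID series and 295 in PCA group 1/2 alone. The causes were not tested. Foxn1, Fezf2, Psmb11 and Pax1 were limited by low counts.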
